A study of Mus musculus with 8 samples.

Results

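The 10 genes described here belong to the cAMP signalling pathway of the pineal gland or are known as its night-induced targets. They were taken by gene name from the deposited table, which lists 53710 genes, and each had 1 row. They are the adenylyl cyclase gene Adcy1, the protein kinase A genes Prkaca and Prkar1a, the transcription factor genes Creb1, Crem and Fosl2, the phosphodiesterase genes Pde4b, Pde4d and Pde10a, and the deiodinase gene Dio2. All 10 had a mean of at least 1 FPKM (the number of sequenced fragments of a gene, scaled by its transcript length and by the library's total) and were tested with 13075 protein-coding genes in all. Total RNA of whole pineal glands was sequenced in 4 libraries of 5xFAD mice and 4 of wild type mice. The values of single libraries stand in the order 5xFAD-1, 5xFAD-2, then 5xFAD-3 and 5xFAD-21, and WT-11, WT-21, then WT-22 and WT-23. 5xFAD mice carry human transgenes with familial Alzheimer's disease mutations, driven by the neuronal Thy1 promoter, and the WT mice were C57BL/6 mice from another supplier, so that supplier and genotype cannot be told apart. Every library was a pool of 5 to 7 glands of male mice, 5 months old, taken 0.5 h after lights on. No library of the dark phase was analysed here, so the night induction of these genes was not measured.

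In the rodent pineal gland, noradrenaline released at night acts on β-adrenergic receptors, and the stimulatory G protein then drives adenylyl cyclase to make cAMP. cAMP releases the catalytic subunits of protein kinase A from the regulatory subunits, and the kinase phosphorylates CREB, which binds cAMP response elements and switches on Aanat, Crem, Fosl2, Dio2 and other genes. Phosphodiesterases break cAMP down, and the short repressors made from Crem limit the response toward morning.

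Of the 9 genes with a promoter window, 2 carried the full cAMP response element, and these are shown with another that carried only its short form. RefSeq promoter windows of GRCm38.p6 cover 250 bases before to 50 bases after each start site, and 9 of the 10 genes had at least 1 window, 19 in all. Crem had no window among those used, so its promoter was not searched. The full element TGACGTCA, which reads the same on both strands, stood in 3 of these 19 windows, those of Dio2 and Prkar1a, where the 3 windows hold 2 separate sites because 2 overlapping windows of Prkar1a share theirs. Of all 32851 windows 1.79% held it. The short form TGACG, searched on both strands and also contained in the full element, stood in windows of 4 genes (Dio2, Prkar1a, Pde4b and Prkaca). Of all windows 20.8% held it. That share is of windows and not of genes, and a gene with several windows, such as Prkar1a or Pde4b, has more places for a match. A match describes these letters in this window and no more. Each stretch below is 100 bases, 5′ to 3′ on the strand of the gene, and capitals mark the match. The Dio2 stretch lies at chr12:90739080-90739179 on the minus strand, with the element 95 bases before the start. The Prkar1a stretch lies at chr11:109650854-109650953 on the plus strand, with the element 49 bases before a start site and 39 bases after another. The Pde4b stretch lies at chr4:102421473-102421572 on the plus strand, and its short form is 34 bases before the start and reads in the other direction.
Dio2: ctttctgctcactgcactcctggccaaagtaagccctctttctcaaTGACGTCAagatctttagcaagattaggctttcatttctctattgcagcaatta
Prkar1a: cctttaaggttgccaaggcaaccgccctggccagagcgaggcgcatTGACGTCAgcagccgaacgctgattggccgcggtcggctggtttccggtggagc
Pde4b: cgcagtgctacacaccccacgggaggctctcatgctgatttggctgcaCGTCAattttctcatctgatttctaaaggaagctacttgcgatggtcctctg
The levels of these 3 genes differed in how far they spread. Prkar1a varied 1.42-fold between its lowest and highest library, Pde4b 4.03-fold and Dio2 48.4-fold.

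The libraries themselves differed in ways that touched these genes. By the level of a transcript of female cells, 1 of the 8 libraries, WT-22, did not match the male sex stated for the mice. How many of its pooled glands this concerns cannot be told. Of 9 brown fat markers all 9 were highest in 5xFAD-2, where they summed to 2142 FPKM, with 40.8 to 114 FPKM in the other 7 libraries. Osteoblast markers summed to 37.1 to 434 FPKM in the 5xFAD libraries and 84.5 to 1998 FPKM in the WT libraries. Most of each sum was the collagen gene Col1a1 (35.4 to 387 FPKM in 5xFAD and 81.0 to 1893 FPKM in WT). Pinealocyte markers were strong in every library, with sums of 3981, 3559, 2447 and 2620 FPKM in 5xFAD and 1823, 1710, 3722 and 2434 FPKM in WT. WT-22 thus stood with the highest 5xFAD libraries. Of the 10 markers 7 were higher in 5xFAD and 3 lower by log2 fold change. An unadjusted p under 0.05 from limma was found for 3 of the 10 (Sag, Neurod1 and Gngt1), higher in 5xFAD, with none called. Of all tested genes 7.93% had such a p, and 4.57% had it with a higher level in 5xFAD. The files hold FPKM and no fragment counts, so no counting error is given. The labels call the libraries of a group biological replicates. In a gland taken whole, fewer cells of a type and less RNA per cell cannot be told apart.

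**Figure D1:**
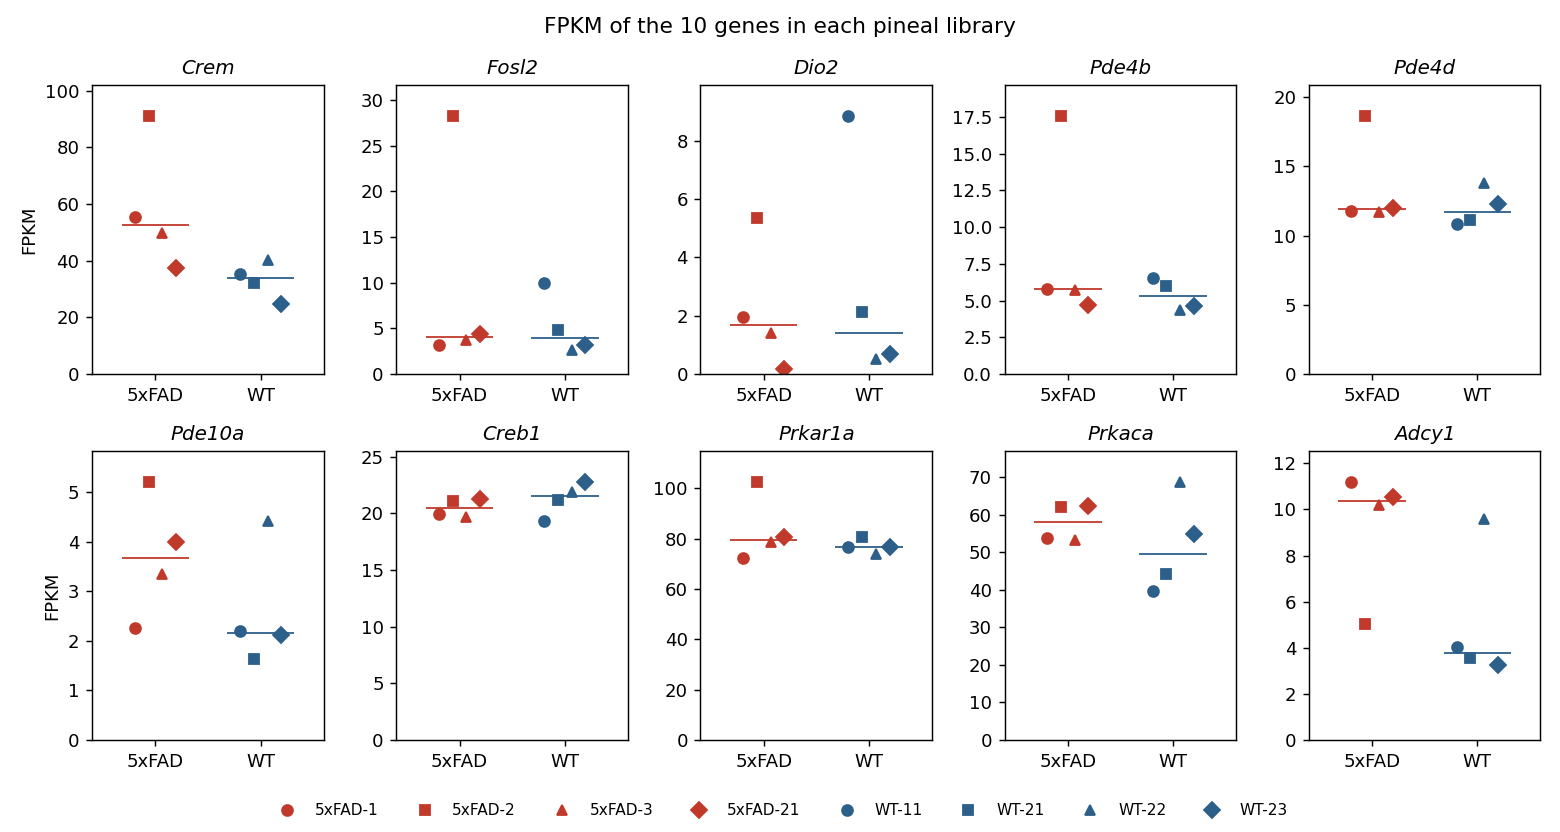
Each panel plots the FPKM (linear axis) of a gene in the 8 libraries, with 5xFAD left of WT. Fosl2 and Pde4b stand at 28.3 and 17.6 FPKM in 5xFAD-2, above every other library, while Creb1 stays within 19.3 and 22.8 FPKM.

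None of the 10 genes differed between 5xFAD and WT at an adjusted p under 0.05 from limma. Among all tested genes 4 did, or 0.0306%, and all 4 were listed at 0 throughout a group. Crem and Adcy1, 2 of the 10, had an unadjusted p under 0.05, both higher in 5xFAD, where 7.93% of all tested genes had such a p (4.57% higher and 3.36% lower). The log2 fold change, always of FPKM + 0.1 and of 5xFAD over WT, was above 0 in 8 of the 10 genes and in 48.7% of all tested genes. Its median was 0.31 over the 10 genes and −0.0074 over all. No gene of the 10 had groups that did not overlap, a pattern found in 4.33% of all tested genes. Without 5xFAD-2 the median over the 10 genes was 0.013, with 2 of 10 genes at an unadjusted p under 0.05 (5.14% of all tested genes) and 0 called (0.0306%). Without WT-22, 4 of 10 had an unadjusted p under 0.05, all higher in 5xFAD, against 18.1% of all tested genes, and 0 were called, against 0.696%.

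**Figure D2:**
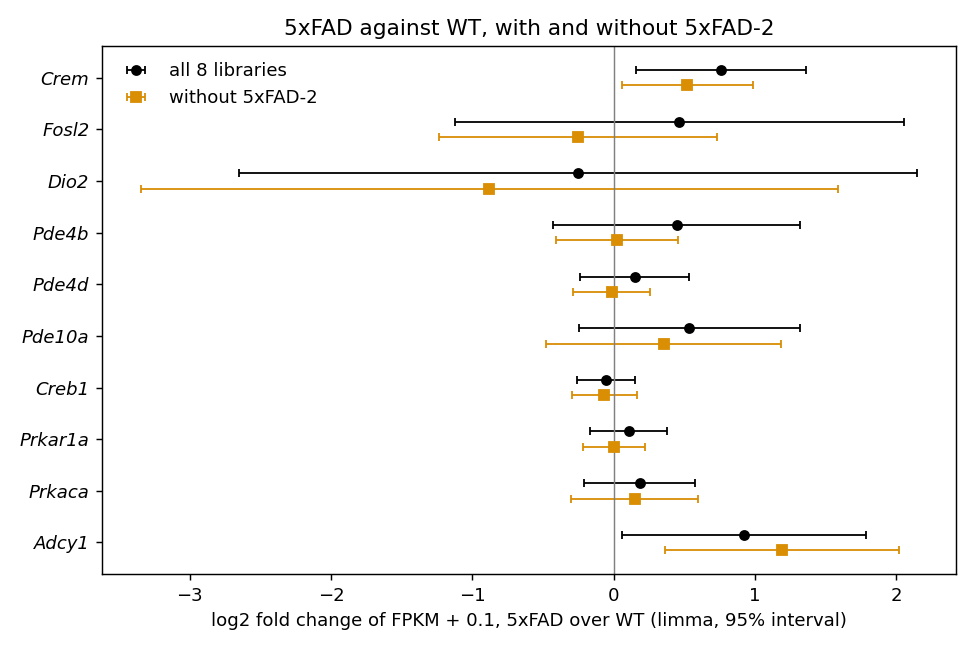
The plot gives each gene's log2 fold change of FPKM + 0.1, 5xFAD over WT, with its 95% interval from limma, with all 8 libraries and without 5xFAD-2. The intervals of Crem and Adcy1 lie above 0 with all libraries, and the estimate of Fosl2 is 0.46 with all libraries and −0.25 without 5xFAD-2.

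Adcy1 had the largest log2 fold change of the 10. It encodes a calcium-stimulated adenylyl cyclase of neurons and neuroendocrine cells, and lies at chr11:7063489-7178506. Its level was 11.2, 5.02, 10.2 and 10.5 FPKM in the 5xFAD libraries, against 4.06, 3.54, 9.60 and 3.24 FPKM in the WT libraries. A library of each group lay with the other group: 5xFAD-2 was nearest to WT-11, WT-21 and WT-23, and WT-22 was nearest to 5xFAD-1, 5xFAD-3 and 5xFAD-21. The means were 9.23 ± 2.84 FPKM in 5xFAD and 5.11 ± 3.01 FPKM in WT (SD, n = 4 each). The log2 fold change was 0.92 (SE 0.38, 95% interval 0.06 to 1.79), with an adjusted p of 0.609 from limma and a two-sided exact permutation p of 0.0571, where 0.0286 is the smallest that 4 against 4 libraries allow. Without WT-22 it was 1.27 with an adjusted p of 0.0999, the lowest for any of the 10 genes under any setting tried, and without 5xFAD-2 it was 1.19 with an adjusted p of 0.895. The pinealocyte marker Sag, which encodes arrestin of the retina and pineal gland, was also high in WT-22, with 997, 635, 781 and 854 FPKM in the 5xFAD libraries, against 482, 244, 930 and 325 FPKM in the WT libraries, and its part in the Adcy1 values was not tested.

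By the fold between the lowest and highest library, the protein kinase A genes were among the steadier of the 10, Prkar1a with 1.42-fold and Prkaca with 1.73-fold. Between the WT libraries alone, the SD of Prkaca was 24.8% of its mean, above that of Crem (19.3%). Prkar1a, at chr11:109649405-109669656, encodes the regulatory subunit RIα that holds the kinase inactive without cAMP, and was the most abundant of the 10. It had 72.2, 102, 78.7 and 80.4 FPKM in the 5xFAD libraries, against 76.8, 80.5, 74.0 and 76.6 FPKM in the WT libraries. Only 5xFAD-2 was above the WT range. Its log2 fold change was 0.10 (SE 0.12, 95% interval −0.17 to 0.38, adjusted p = 0.815 from limma), and 0.0021 without 5xFAD-2. Prkaca, at chr8:83972993-83996443, encodes the catalytic subunit Cα. Its level was 53.8, 62.1, 53.2 and 62.2 FPKM in the 5xFAD libraries and 39.8, 44.3, 68.7 and 54.9 FPKM in the WT libraries. The WT libraries spread more widely, with the lowest and the highest value of all 8. Its log2 fold change was 0.18 (SE 0.17, 95% interval −0.21 to 0.57, adjusted p = 0.787), 0.33 without WT-22 (adjusted p = 0.263) and 0.065 without WT-11.

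Creb1, at chr1:64532645-64604548, encodes the factor that the kinase phosphorylates, and was the steadiest of all. It had 19.9, 21.1, 19.7 and 21.3 FPKM in the 5xFAD libraries, against 19.3, 21.2, 21.8 and 22.8 FPKM in the WT libraries. Its log2 fold change was −0.05 (SE 0.09, 95% interval −0.26 to 0.15, adjusted p = 0.875 from limma), so the interval holds no change above 0.26 on that scale in either direction. CREB is controlled by phosphorylation, which these data do not measure.

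Crem, at chr18:3266048-3337748, encodes the cAMP response element modulator, with activator isoforms and the short inducible repressor ICER, which a value per gene does not separate, and it shares exonic bases with 1 other gene. Its level was 55.3, 91.1, 49.7 and 37.3 FPKM in the 5xFAD libraries, against 35.2, 32.3, 40.1 and 24.8 FPKM in the WT libraries. The libraries 5xFAD-1, 5xFAD-2 and 5xFAD-3 were above every WT library, and 5xFAD-21 was above all WT libraries but WT-22. The means were 58.4 ± 23.1 FPKM in 5xFAD and 33.1 ± 6.4 FPKM in WT (SD, n = 4 each), and the log2 fold change was 0.76 (SE 0.26, 95% interval 0.16 to 1.36, unadjusted p = 0.0187, adjusted p = 0.593 from limma, two-sided exact permutation p = 0.0571). Without 5xFAD-2 it was 0.52 (adjusted p = 0.895). The sample titles number the libraries but name no series. They were grouped here by title number into a series of 1 to 11 and a series of 21 to 23. On the log2 scale Crem differed by 0.84 in the former (5xFAD-1, 5xFAD-2 and 5xFAD-3 against WT-11). In the latter it differed by 0.23 (5xFAD-21 against the other 3 WT libraries). With the series as a term the log2 fold change was 0.54 (adjusted p = 0.442 from limma).

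Fosl2, at chr5:32135801-32157842, encodes Fra-2, an AP-1 factor known in the rat pineal gland as a night-induced repressor. It had 3.24, 28.3, 3.77 and 4.39 FPKM in the 5xFAD libraries, against 9.96, 4.78, 2.69 and 3.21 FPKM in the WT libraries. The value in 5xFAD-2 was 7.5-fold above the median of the other 7 libraries, and the next highest was WT-11. The rest of the 5xFAD libraries lay within the WT range. Its log2 fold change of 0.46 (SE 0.70, 95% interval −1.12 to 2.05, adjusted p = 0.860 from limma) was −0.25 without 5xFAD-2.

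The phosphodiesterase genes followed 5xFAD-2 as well, to different degrees. Pde4b encodes a cAMP-specific phosphodiesterase that is induced at night in the rat gland, and lies at chr4:102087543-102607259. It had 5.78, 17.6, 5.74 and 4.72 FPKM in the 5xFAD libraries, against 6.51, 6.02, 4.36 and 4.62 FPKM in the WT libraries. Only 5xFAD-2 was above the WT range, 3.06-fold above the median of the other 7. The log2 fold change was 0.45 (SE 0.38, 95% interval −0.43 to 1.32, adjusted p = 0.773 from limma) and 0.024 without 5xFAD-2.

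Pde4d, its paralog at chr13:108449948-109953461, had 11.8, 18.6, 11.7 and 12 FPKM in the 5xFAD libraries, against 10.9, 11.1, 13.8 and 12.3 FPKM in the WT libraries. Here too 5xFAD-2 alone stood above the WT range, by less (1.58-fold above the median of the other 7), and the log2 fold change was 0.15 (SE 0.17, 95% interval −0.24 to 0.54, adjusted p = 0.815). Pde10a, at chr17:8525372-8986648, encodes a phosphodiesterase of cAMP and cGMP and is night-induced in the rat gland. Its level was 2.26, 5.20, 3.34 and 4.00 FPKM in the 5xFAD libraries, against 2.19, 1.64, 4.42 and 2.12 FPKM in the WT libraries. All but 5xFAD-2 lay within the WT range, and WT-22 was the second highest of the 8. The log2 fold change was 0.53 (SE 0.34, 95% interval −0.25 to 1.32, adjusted p = 0.704), 0.35 without 5xFAD-2 and 0.81 without WT-22 (adjusted p = 0.210).

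Dio2, at chr12:90724552-90738438, had the widest spread of the 10. It encodes type 2 deiodinase, which turns thyroxine into active triiodothyronine and is a known cAMP target of pineal gland and brown fat. It shares exonic bases with 1 other gene. Its level was 1.97, 5.35, 1.41 and 0.183 FPKM in the 5xFAD libraries, against 8.85, 2.13, 0.506 and 0.704 FPKM in the WT libraries. The lowest library was 5xFAD-21 and the highest WT-11, and these were also the libraries with the lowest and the highest sum of osteoblast markers (37.1 FPKM in 5xFAD-21 and 1998 FPKM in WT-11), while 5xFAD-2, the second highest in Dio2, had the brown fat markers. That osteoblast sum was mostly Col1a1, with 35.4 FPKM in 5xFAD-21 and 1893 FPKM in WT-11. Of the other markers in it, Bglap, Bglap2, Sp7 and Ibsp were also lowest in 5xFAD-21 and highest in WT-11. Ifitm5 was lowest in 5xFAD-3, and Dmp1 was lowest in WT-22 and highest in 5xFAD-2. The part of osteoblast and brown fat RNA in the Dio2 values was not tested. Over all libraries the log2 fold change was −0.25 (SE 1.05, 95% interval −2.65 to 2.14, adjusted p = 0.955 from limma), and it was 0.54 without 5xFAD-21 and 0.53 without WT-11. Within the title number series it was −1.80 and −1.86, and with the series as a term −1.83 (SE 0.61, unadjusted p = 0.0181, adjusted p = 0.382). The series of 1 to 11 holds a lone WT library and the series of 21 to 23 a lone 5xFAD library.

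**Figure D3:**
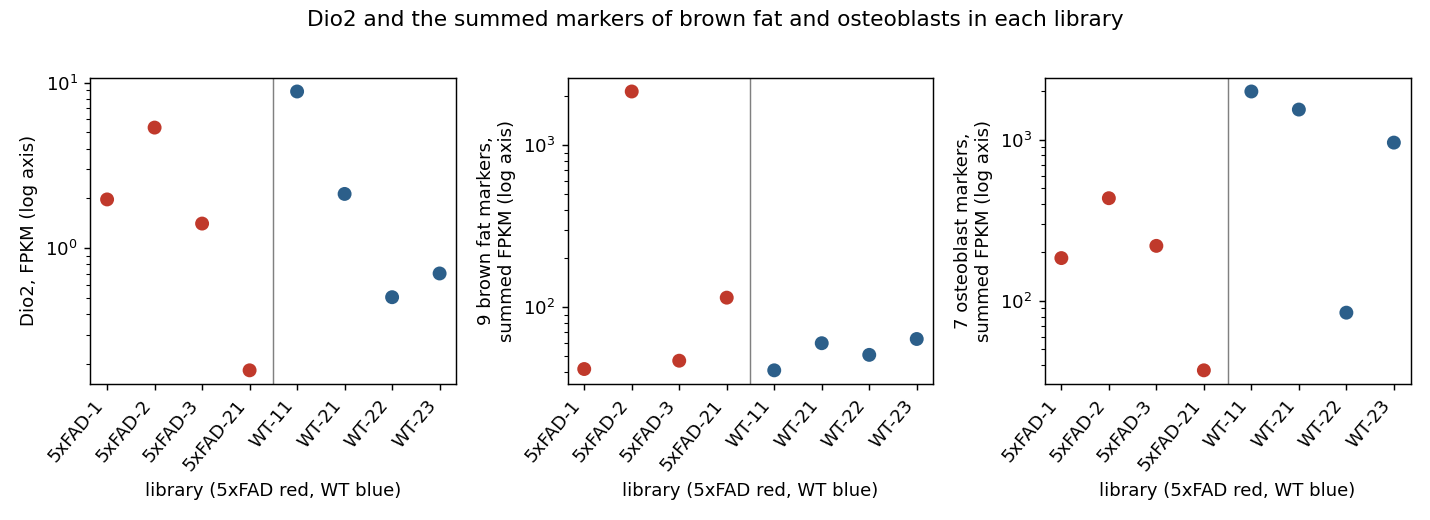
The panels plot Dio2, the sum of 9 brown fat markers and the sum of 7 osteoblast markers in each library, in FPKM on log axes, with 5xFAD (red) left of WT (blue). Dio2 and the osteoblast sum are both lowest in 5xFAD-21 (0.183 and 37.1 FPKM) and highest in WT-11 (8.85 and 1998 FPKM), and the brown fat sum stands out in 5xFAD-2 (2142 FPKM). Most of the osteoblast sum is Col1a1. The libraries between do not all follow, as in WT-23 (Dio2 0.704 FPKM, osteoblast sum 962 FPKM).

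FPKM counts fragments per length, so levels can be set beside each other between genes. Averaged over the 8 libraries the order was Prkar1a (80.2 FPKM), Prkaca (54.9), Crem (45.7), Creb1 (20.9), Pde4d (12.8), Fosl2 (7.54), Adcy1 (7.17), Pde4b (6.91), Pde10a (3.15) and Dio2 (2.64). Between neighbours in this order, the ranges over libraries were apart for Prkar1a and Prkaca, for Crem and Creb1 and for Creb1 and Pde4d, and overlapped for the other 6 pairs. Fosl2 was above Adcy1 in 3 of the 8 libraries, and without 5xFAD-2 its mean was 4.58 FPKM, below Adcy1 (7.48 FPKM) and Pde4b (5.39 FPKM).

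5xFAD-2 was the highest library for 6 of the 10 genes, where it was the highest for 16.9% of all tested genes. In 5 of the 10 (Crem, Fosl2, Dio2, Pde4b and Pde10a) it was at least 2-fold above the median of the other 7 libraries, as were 3.81% of all tested genes. The median log2 deviation of the 10 genes from their own means over the 8 libraries was 0.69 in 5xFAD-2, −0.080, −0.054 and −0.029 in the other 5xFAD libraries, and −0.16, −0.17, −0.0079 and −0.43 in the WT libraries. The other genes known to be induced by cAMP in the night gland were high in the same library. Of 15 genes of that list, 5 of them among the 10, 5xFAD-2 was the highest library for 13 and at least 2-fold above the median of the others for 13. The 10 genes and this list were chosen with earlier results of these data known, so these counts are a description and not a test. Aanat, the enzyme that paces melatonin synthesis, had 7.58, 34.8, 3.77 and 0.943 FPKM in the 5xFAD libraries, against 5.81, 7.45, 1.21 and 2.08 FPKM in the WT libraries. The orphan receptor genes Nr4a1 and Nr4a3 had 63.9 and 16.9 FPKM in 5xFAD-2, with 1.32 to 17.8 and 0.196 to 1.4 FPKM in the other 7. Mat2a, which makes the methyl donor S-adenosylmethionine and is night-induced in the rat, had 174 FPKM in 5xFAD-2, within the 110 to 187 FPKM of the others. Over the 15 genes the log2 fold change was above 0 for 12, 1 had an unadjusted p under 0.05 (Crem), 0 were called, and the median was 0.53 with 5xFAD-2 and −0.10 without it. A list of 7 heat shock and immediate early genes, 4 of which (Fos, Junb, Dusp1 and Nr4a1) are also in the night-induced list, was high in the same library, with a sum of 465 FPKM in 5xFAD-2, 191 FPKM in 5xFAD-21 and between 19.8 and 36.2 FPKM in the other 6. The 3 genes of it outside the night-induced list summed to 167 FPKM in 5xFAD-2, 67.3 FPKM in 5xFAD-21 and between 5.396 and 10.6 FPKM in the other 6, and their part in these values was not tested.

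**Figure D4:**
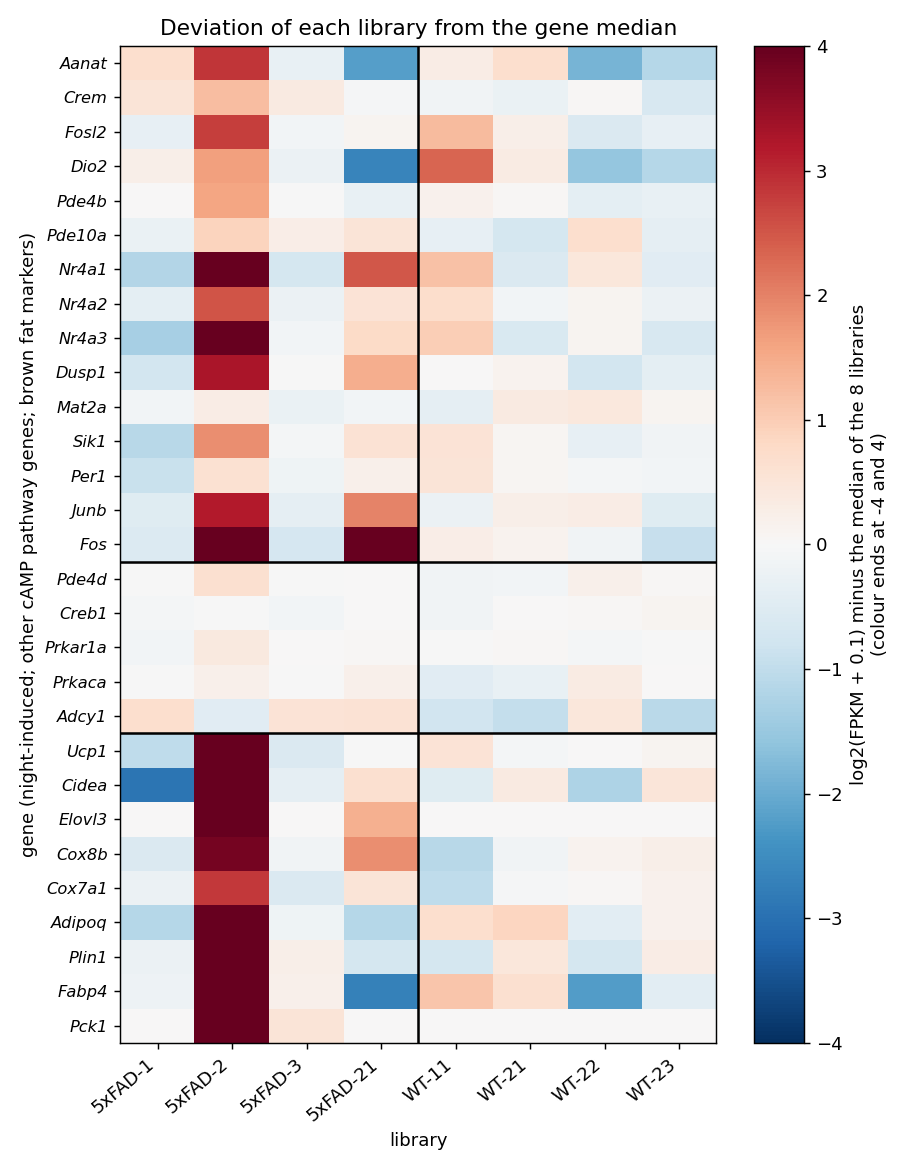
The heat map shows the log2 deviation of the night-induced genes, of the other cAMP pathway genes among the 10 and of brown fat markers from the gene's median over the 8 libraries, on a colour scale that ends at −4 and 4, 5xFAD left of WT. The 5xFAD-2 column is high for most night-induced genes, with Aanat at 34.8 FPKM there, and for all 9 brown fat markers.

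Upstream and beside these genes, the rest of the pathway gave no called gene. The lists below were tested in the same fit and are described by their counts. Over these 8 lists, 3 of 69 tested genes (4.35%) had groups that did not overlap and 6 (8.7%) had an unadjusted p under 0.05, near the 4.33% and 7.93% of all tested genes. Of 10 adenylyl cyclases 8 were tested, 2 with a log2 fold change above 0 and 6 below, with a median of −0.22, so Adcy1 did not stand for its family. The other cyclase above 0 was Adcy3, known from olfactory cilia, with 13.6, 12.9, 13.7 and 9.71 FPKM in the 5xFAD libraries and 3.60, 3.46, 12.1 and 4.76 FPKM in the WT libraries. As with Adcy1 and Sag, WT-22 lay with the 5xFAD libraries. The log2 fold change of Adcy3 was 1.24 (SE 0.37, adjusted p = 0.546 from limma), and without WT-22 it was 1.64 and passed (adjusted p = 0.0176). Leaving out WT-22 raised the share of all tested genes that passed from 0.0306% to 0.696%, 91 genes.

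The G alpha subunits that act on the cyclase (6 of 7 tested) had 5 values above 0 and 1 below, with a median of 0.07. The receptors upstream of cAMP (8 of 12 tested) had 5 above and 3 below, with a median of 0.06. The protein kinase A subunits and inhibitors (8 of 9 tested), which hold Prkar1a and Prkaca, had 6 above and 2 below, with a median of 0.19 and of 0.07 without 5xFAD-2. The exchange factors for small G proteins that bind cAMP (2 of 2 tested) were both below 0, with a median of −0.20.

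Among the A-kinase anchoring proteins (11 of 15 tested), 5 values were above 0 and 6 below, with a median of −0.05. Akap6, which tethers the kinase at the nuclear envelope of muscle cells and neurons, was the exception in size, with 21, 17, 15.5 and 27.4 FPKM in the 5xFAD libraries and 9.04, 3.05, 11.8 and 4.29 FPKM in the WT libraries. Its groups did not overlap, and the log2 fold change was 1.67 (SE 0.41, adjusted p = 0.516 from limma). Of the phosphodiesterases of cAMP (15 of 16 tested) 9 were above 0 and 6 below, with a median of 0.07. Pde2a, a phosphodiesterase that cGMP stimulates, had 3.67, 5.86, 5.59 and 3.97 FPKM in the 5xFAD libraries and 2.79, 1.33, 3.02 and 0.80 FPKM in the WT libraries, again with no overlap (1.37, SE 0.40, adjusted p = 0.546). In the list of CREB family factors, coactivators and salt-inducible kinases (11 of 11 tested) 3 were above 0 and 8 below, with a median of −0.05. Crebbp, the coactivator that binds phosphorylated CREB, had 12.5, 11.4, 14.4 and 13.4 FPKM in the 5xFAD libraries and 16.2, 16.3, 15.3 and 15.8 FPKM in the WT libraries. Every 5xFAD library was below every WT library, by a log2 fold change of −0.30 (SE 0.10, adjusted p = 0.581).

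**Figure D5:**
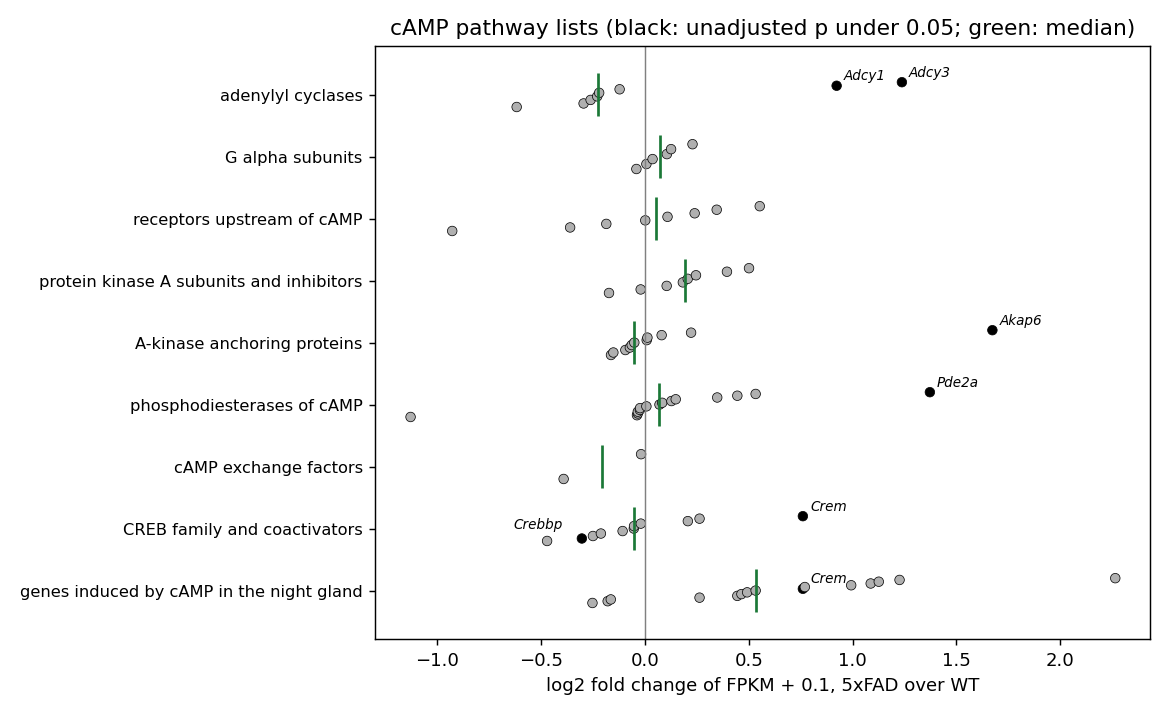
Each point is a tested gene of a list, placed by its log2 fold change of FPKM + 0.1, 5xFAD over WT, with the list's median as a green line and black points for an unadjusted p under 0.05. The night-induced list has the highest median, 0.53 with all libraries and −0.10 without 5xFAD-2. Adcy3, Akap6 and Pde2a stand apart from lists whose medians are −0.22, −0.05 and 0.07, with adjusted p of 0.546, 0.516 and 0.546 from limma.

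For Crem and Dio2 the genes with the most similar pattern over the 8 libraries were looked up among all tested genes by Pearson's r of log2 values, as a description over libraries that share 5xFAD-2 and the other differences named. Nearest to Crem were Ppp1cb (r = 0.97, Spearman's rho 0.90), Wrnip1 (0.97 and 0.88), Ppp1r2 (0.97 and 0.93), Tspan12 (0.96 and 0.95) and Klhl9 (0.96 and 0.98). Nearest to Dio2 were Kif11 (0.99 and 0.98), Gcnt1 (0.99 and 0.98), Rnf144a (0.98 and 1), Dpt (0.98 and 0.98) and Atf5 (0.97 and 0.95). Among the 10 genes, Fosl2 and Pde4b had r = 0.93 over 8 libraries and 0.71 over the 7 without 5xFAD-2, while Pde4b and Prkar1a had 0.90 and 0.13. Crem and Adcy1 went the other way, with 0.38 over 8 libraries and 0.84 over 7.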

How the data were processed

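Total RNA was depleted of ribosomal RNA, made into stranded libraries and sequenced as read pairs. The authors trimmed the reads with Trimmomatic, aligned them to mm10 (GRCm38.p6) with STAR and computed FPKM per gene with Cuffnorm on GENCODE M17; the versions and the library normalization of Cuffnorm are not given in the sources used here. These deposited FPKM values were used as they are. The study's other quantification, with Salmon and edgeR, does not enter them, and the read totals of the libraries were not used here. Of 53710 gene IDs 53616 matched GENCODE M21, which gave the gene types and, on the same build, the positions.

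Protein-coding genes that averaged at least 1 FPKM across libraries (13075 genes) were fitted with limma 3.58.1 in R 4.3.3 on log2(FPKM + 0.1), with a trend of the prior variance and no covariate, and p values were adjusted over all of them by Benjamini-Hochberg. A fold change on this scale understates that of low genes. Exact permutation tests ran over the 4 against 4 splits. On data simulated for this comparison with 13075 genes, 51 of 100 genes given a log2 change of 1 were called, 86 of 100 given one of 2, and 7 of 12875 unchanged genes. The noise was drawn for each gene and library on its own, so differences shared by the genes of a library were not simulated. Promoter windows came from RefSeq (GRCm38.p6). Tables were made in Python 3.11.15.

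The members and gene lists were chosen with earlier results of these data known. Outside the members, the text names by rule up to 3 genes of each pathway list with the smallest unadjusted p under 0.05, and for Crem and Dio2 the 5 genes of the most similar pattern. Aanat is named as the gland's melatonin enzyme. Sag, Neurod1, Gngt1, Nr4a1, Nr4a3, Mat2a and the genes of the closing observations were chosen after their values were seen. As alternatives, pseudocounts of 0.01 and 1, no filter, a minimum average of 5 FPKM, median-ratio, quantile and same-total scaling, the title number series as a term, a replicate block, no trend, the exact permutation test, leaving out each library and 5xFAD-2 with 5xFAD-21 were run. Protein-coding genes by the class in the deposited table were added after seeing the data. The labels number the replicates of each group but do not say that same-numbered libraries were made as pairs.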

Additional observations from a re-analysis of the deposited data

Results flagged for a closer look

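In a group of 4 libraries, a value was singled out where its gap to the nearest of the others as a share of the group's range exceeded Dixon's 95% limit, which chance gives in about 1 of 20 groups. Of the 20 groups of the 10 genes 5 were singled out, 4 of them for 5xFAD-2. Fosl2 had 28.3 FPKM in 5xFAD-2 and 3.24 to 4.39 FPKM in the other 5xFAD libraries. Pde4b had 17.6 FPKM in 5xFAD-2 and 4.72 to 5.78 FPKM in the others. Pde4d had 18.6 FPKM in 5xFAD-2 and 11.7 to 12 FPKM in the others. Adcy1 was low in that library, with 5.02 FPKM and 10.2 to 11.2 FPKM in the others. In the WT group Adcy1 had 9.60 FPKM in WT-22 and 3.24 to 4.06 FPKM in the other WT libraries.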

How the results depend on the processing

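No member passed an adjusted p of 0.05 under any of the 21 alternatives, and the log2 fold changes of Crem, Adcy1, Pde4b, Pde10a and Prkaca kept their sign under all that could be run for them. Dio2 and Pde10a have no value at a mean of at least 5 FPKM, which they do not reach. The count of called genes was 7 with no filter, 0 with the exact permutation test (566 genes had its smallest p) and 4 to 91 with a library left out, the 91 without WT-22. The median over the members was 0.013 to 0.51 with a library left out, the 0.013 without 5xFAD-2. With a library left out Fosl2 ranged over −0.25 to 0.84 (below 0 without 5xFAD-2), Pde4d over −0.014 to 0.22 (below 0 without 5xFAD-2) and Dio2 over −0.88 to 0.54 (0.53 without WT-11 and 0.54 without 5xFAD-21). Fosl2 was −0.36 without 5xFAD-2 and 5xFAD-21 and −0.078 with the title number series as a term, where Creb1 was 0.010. Without 5xFAD-2 and 5xFAD-21, Pde4d was −0.024, Prkar1a −0.029 and Dio2 0.0022. The cause was not tested. Libraries with the same replicate number in the labels did not all vary together (r = −0.04, 0.20, −0.34 and 0.25 across genes) and were not taken as pairs, nor were 5xFAD-21 and WT-21, which share a title number (r = −0.31). With the replicate block 4 genes were called, 0 of them members, the median over the members was 0.31, and Crem and Adcy1 had an adjusted p of 0.844 each. Scaling moved the median of all genes by under 0.1 on the log2 scale. Without counts, errors of low values such as Dio2 could not be set against counting noise.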

Other observations

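A few further genes of cAMP signalling, chosen after their values were seen, were high in 5xFAD-2. Of the tested adenylyl cyclases 0 of 8, and of the tested G alpha genes 0 of 6, were at least 2-fold above the median of the other libraries there. These counts are near the share of all tested genes, 3.81%. Adrb3, the β3-adrenergic receptor of fat cells, had 6.33 FPKM in 5xFAD-2 and 0 to 0.207 FPKM in the other 7 libraries. It averaged 0.865 FPKM over the libraries, below the filter, and was not tested. Pde3b, the phosphodiesterase of insulin signalling in fat, had 8.52 FPKM there and 0.391 to 1.95 FPKM in the others. Prkar2b, the protein kinase A regulatory subunit RIIβ, known from brain and fat, had 136 FPKM there and 29.6 to 54.9 FPKM in the others. The salt-inducible kinase genes Sik1 and Sik2 had 19.6 and 17.8 FPKM there, with 2.42 to 8.04 and 6.20 to 8.78 FPKM in the others. Akap2, an A-kinase anchoring protein gene, had 15.3 FPKM there and 3.69 to 9.58 FPKM in the others.

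The immediate early genes Fos, Junb and Dusp1 were high in a pair of 5xFAD libraries. The rest of the night-induced list did not all follow, as Nr4a2, Nr4a3, Per1 and Fosl2 were lower in 5xFAD-21 than in WT-11. In 5xFAD-2 and 5xFAD-21, Fos had 69.0 and 43.1 FPKM, Junb 98.6 and 44.0 FPKM, and Dusp1 66.0 and 18.6 FPKM. In 5xFAD-21, by contrast, Aanat (0.943 FPKM) and Dio2 (0.183 FPKM) were the lowest of the 8 libraries.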
